A study of Arabidopsis thaliana with 12 samples.

Results

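This comparison set axr2 seedlings treated with a brassinosteroid against msg2 seedlings treated in the same way. Its members were the 4 arrays whose titles name axr2 or msg2 and the hormone, 2 per mutant, out of 12 arrays in the series, with all probe sets for genes. The seedlings were Arabidopsis thaliana of the Columbia ecotype, 4 days old, and had grown in darkness after 8 h of light on medium with 2% sucrose. Treated seedlings grew on 100 nM 24-epibrassinolide (24-eBL, written BR below), a synthetic brassinosteroid. The other 8 arrays, 2 per group, were from wild type (WT) with and without BR and from the mutants without BR (mock). They entered the fit for its estimate of spread and are given beside the members where stated. All differences are axr2 minus msg2, in log2 signal.

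As background, msg2 and axr2 are dominant mutants of the auxin pathway. Each carries a stabilising mutation in a gene of the Aux/IAA family, IAA19 in msg2 and IAA7 in axr2. Aux/IAA proteins repress the auxin response factors that switch on auxin-responsive genes, and auxin normally causes their degradation, so a stabilised form keeps those genes repressed. Auxin and brassinosteroids both promote elongation of the hypocotyl in dark-grown seedlings, and many genes of cell wall loosening respond to both. The labels give no allele for either mutant, and since the mutations act on protein stability, mRNA levels of IAA7 or IAA19 could not serve to check which mutant a sample is. IAA7 and IAA19 are not analysed here. RNA was from whole seedlings, as far as the labels say, so fewer cells of a type and less RNA per cell cannot be told apart.

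The ATH1 array reads each transcript with a set of short probes, a probe set, whose signals the submitters had summarised. Of 22746 probe sets for genes, 15025 were tested, and 8094 genes were each read by a tested probe set paired with that gene alone. The submitters call the 2 arrays of a group biological replicates. They correlated with r = 0.975 in each treated mutant, and treated axr2 arrays with treated msg2 arrays at r = 0.931 to 0.938. Differences are given ± SE from a limma fit to all 12 arrays, and a probe set was called at an adjusted p (Benjamini-Hochberg) under 0.05. Signals no higher than the 40th percentile of their own array are called dim here. Where the lower group holds a dim signal, its fold is a lower bound, computed with dim signals raised to that percentile and written "at least". Every array was also left out in turn, and a gene whose call did not survive this has the arrays concerned, or their number, printed with it.

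Between the treated mutants 1924 of 15025 probe sets (12.8%) were called, 861 (5.73%) higher in axr2 and 1063 (7.07%) lower. By genes, 968 of 8094 (12%) were called, 431 (5.32%) higher and 537 (6.63%) lower. The difference was 2-fold or larger for 758 of the called probe sets, 304 higher and 454 lower. The median difference was 0.05 over the probe sets and 0.06 over the genes. With every array centred on its median signal the split moved to 616 higher and 1357 lower. The number of calls rested on both arrays of each mutant: it was 1191 and 1059 without msg2 BR array 1 or 2, and 1055 and 1246 without axr2 BR array 1 or 2.

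Without the hormone, on 4 arrays that the treated comparison does not use, 2522 probe sets (16.8%) were called, 1242 (8.27%) higher in axr2 and 1280 (8.52%) lower. Centring on medians moved that split to 672 and 1838. Of the 861 probe sets higher in treated axr2, 378 were also called higher in mock, which is 43.9% of the treated list and 30.4% of the mock list, and 4 were called lower. Of the 1063 lower in treated axr2, 631 were also called lower in mock, 59.4% of the treated and 49.3% of the mock list, and 5 were called higher. The differences with and without BR correlated across the 15025 probe sets with Pearson's r = 0.67 and Spearman's rho = 0.59, a description across probe sets that are not independent. Genes are described below by what they do, and those whose difference changed with the hormone come last.

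**Figure D1:**
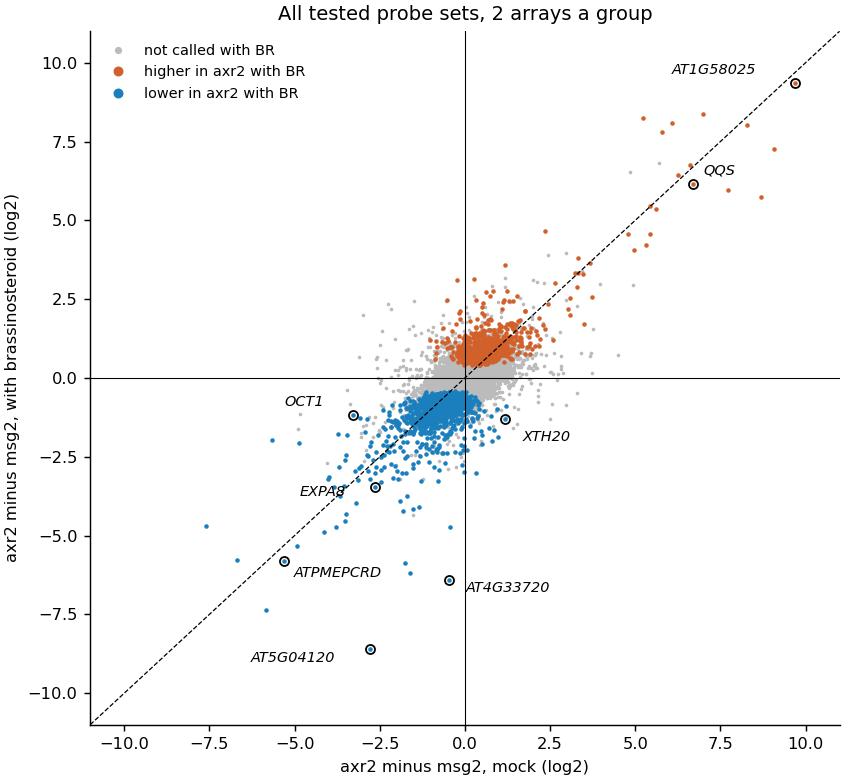
The axr2 minus msg2 difference (log2) with brassinosteroid, on the vertical axis, against the same difference in mock seedlings, for all 15025 tested probe sets. Orange points were called higher and blue points lower in treated axr2, grey points were not called, and the dashed line marks equal differences. ATPMEPCRD (−5.81 with BR, −5.32 in mock) lies near the line, and AT4G33720 (−6.40 and −0.48) lies far below it.

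The genes that were lowest in treated axr2 against treated msg2 included several that act on the cell wall of growing tissue. The pectin methylesterase gene ATPMEPCRD, whose product removes methyl esters from wall pectin, read 7.32 and 7.35 on the treated axr2 arrays and 12.97 and 13.34 on the treated msg2 arrays. Treated wild type read 13.52 and 13.27, so axr2 stood far below both other genotypes. The difference was −5.81 ± 0.15 (limma adjusted p = 1.7e-14), or 56.3-fold lower. It was −5.32 in mock. Of 5 tested pectin-modifying genes 3 were lower and none higher, with a median of −0.63 against 0.06 over all genes. Over all genes 6.63% were called lower and 5.32% higher. PME61, another pectin methylesterase gene, was 2.52-fold lower (−1.33 ± 0.27). PMEPCRF was 1.55-fold lower and lost its call without msg2 BR array 2 or axr2 BR array 2.

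Xyloglucan endotransglucosylase/hydrolases (XTHs) cut and rejoin the xyloglucan chains that tie cellulose microfibrils together. Of 10 XTH genes with a probe set of their own 8 were tested, and 5 were lower in treated axr2, 1 was higher and 2 were not called, with a median of −0.96. Over all tested genes 6.63% were called lower and 5.32% higher. In mock 3 of the 8 were lower and 3 higher, with a median of 0.31, so the family was not generally lower in axr2 without BR. Over all tested genes in mock 7.6% were called lower and 8.29% higher. XTH19 read 9.24 and 9.17 in treated axr2 and 11.91 and 11.96 in treated msg2, a 6.62-fold difference (−2.73 ± 0.15, adjusted p = 7.7e-10). Treated wild type read higher still, at 12.77 and 12.93, and msg2 was itself below it by 0.92 (adjusted p = 0.00067). XTH33 read 8.92 and 8.65 against 10.39 and 10.25, 2.90-fold lower, and again wild type was highest at 11.23 and 11.37. XTH20 was 2.45-fold lower, EXGT-A3, an endoxyloglucan transferase gene, 2.01-fold and XTH18 1.88-fold. The XTH18 call was lost without msg2 BR array 1 or axr2 BR array 1. XTH32 differed in the other direction. It read 12.82 and 12.45 in treated axr2, 11.47 and 11.33 in treated msg2 and 10.54 and 10.72 in treated wild type, so axr2 was 2.35-fold above msg2 (1.23 ± 0.15, adjusted p = 2.5e-05). XTH16 (0.25 ± 0.22) and XTH21 (−0.63 ± 0.57) were not called.

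Expansins loosen the wall without cutting it, and here they divided. Of 19 genes of the expansin superfamily with a probe set of their own 15 were tested, of which 6 were lower, 4 higher and 5 not called. The median was 0.05, and −0.03 with arrays centred on their medians. Over all tested genes 6.63% were called lower and 5.32% higher. In mock 4 of the 15 were lower and 1 higher, with a median of −0.21. EXPA8 differed most, with 8.46 and 8.31 in treated axr2, 11.81 and 11.88 in treated msg2 and 12.35 and 12.61 in treated wild type. It was 11.0-fold lower in axr2 than in msg2 (−3.46 ± 0.16, adjusted p = 6.6e-11). The expansin-like gene EXLA1 was 2.42-fold lower (9.18 and 9.29 against 10.53 and 10.49). EXLA3 (at least 2.14-fold), EXPB1 (1.73-fold), EXPA20 (1.60-fold) and EXLA2 (1.57-fold) were also lower, and each lost its call without 1 or more of the 4 treated arrays. EXPA9 went the other way, at 13.76 and 13.82 in axr2 and 12.58 and 12.70 in msg2, a 2.23-fold higher signal (1.15 ± 0.18, adjusted p = 0.00031). EXPA18 (1.97-fold), EXLB1 (1.96-fold) and EXPA15 (1.71-fold) were also higher. EXPA18, known from root hairs, lost its call without msg2 BR array 2 or axr2 BR array 1. EXPA15 lost it without msg2 BR array 1 or axr2 BR array 1, and EXLB1 without any of the 4. With axr2 BR array 1 left out, 1 expansin gene was higher and 2 were lower.

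**Figure D2:**
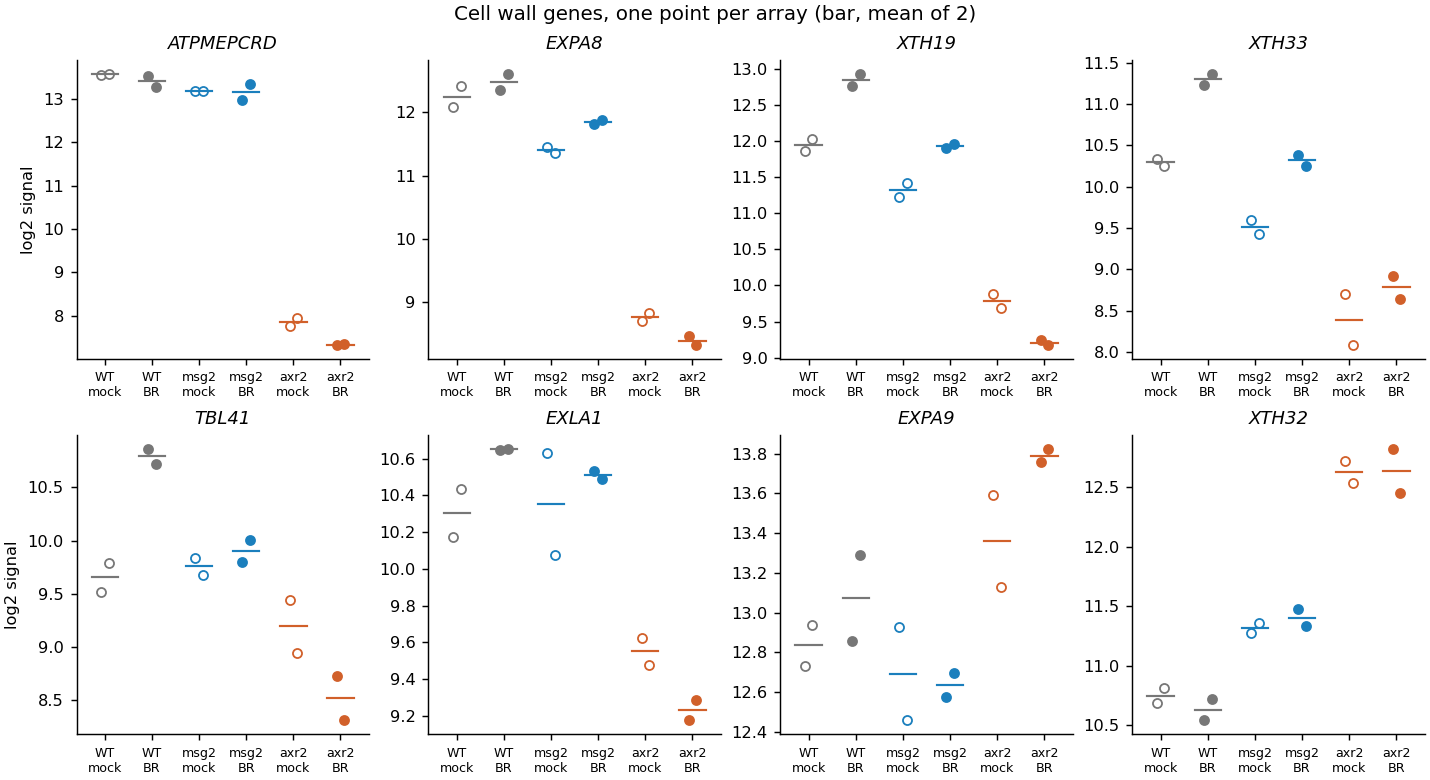
Log2 signal of 8 cell wall genes on all 12 arrays, 1 point per array and a bar at the mean of each pair, with open points for mock and filled points for BR (vertical axes do not start at 0 and differ between panels). The axr2 arrays lie below the msg2 arrays in the first 6 panels and above them for EXPA9 and XTH32 in both treatments, with the levels given in the text for BR.

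Other wall polymer genes were tested too, where 5.32% of all tested genes were called higher and 6.63% lower. Of 27 tested genes for cellulose synthases, their relatives and xylan and acetylation enzymes, 4 were lower and none higher, and the median was −0.03. TBL41, of a family whose members acetylate wall polysaccharides, read 8.73 and 8.31 in treated axr2 and 9.80 and 10.01 in treated msg2, 2.61-fold lower (−1.39 ± 0.20, adjusted p = 1e-04). The other 3 (IRX15, TBL37 and GUT2) lost their calls without 1 or more of the 4 treated arrays. Of 10 GH9 endoglucanase genes, GH9B18 was at least 2.96-fold higher (7.78 and 7.52 against 5.87 and 6.13, the first of these dim). GH9C2 was 1.82-fold lower, a call lost without msg2 BR array 2 or either axr2 BR array. Among proteases of the secretory pathway, 6 of 27 tested genes for subtilases, serine carboxypeptidase-like proteins and vacuolar processing enzymes were lower and none was higher, with 3 lower when msg2 BR array 2 was left out. The median of these protease genes was 0.0005, with 14 positive and 13 negative differences. The lists of endoglucanases and proteases were chosen after the values had been seen. The subtilase gene SBT4.12 read 10.62 and 10.91 against 12.19 and 12.50, 2.99-fold lower (−1.58 ± 0.15), and ATSBT5.2 was 2.29-fold lower. The serine carboxypeptidase-like gene scpl40 read 7.65 and 7.06 against 9.10 and 9.11, 3.36-fold lower (−1.75 ± 0.21).

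Genes of auxin response and transport were represented by few probe sets. Over all tested genes 12% were called, 5.32% higher and 6.63% lower, so counts in lists of 3 or 4 genes are not read as a result about the list. HAT2, an HD-ZIP II homeobox gene known as auxin-inducible, read 7.54 and 7.56 in treated axr2 and 9.02 and 9.20 in treated msg2. Treated wild type (9.03 and 9.38) read close to msg2, and axr2 was 2.95-fold lower than msg2 (−1.56 ± 0.18, limma adjusted p = 1.6e-05). WAG2, a protein kinase gene that acts on the placement of PIN auxin carriers, was 2.14-fold lower, at 10.51 and 10.41 against 11.45 and 11.67. None of 3 tested Aux/IAA genes was called (median −0.22). Of 3 tested SAUR genes, a family of small auxin-induced transcripts, AT1G43040 (synonym SAUR58) was at least 1.63-fold lower, a call lost without msg2 BR array 1. AT3G53250 (synonym SAUR57) was at least 3.86-fold higher, at 7.48 and 8.70 against 6.19 and 5.73, a call lost without axr2 BR array 2. GH3 enzymes join auxin to amino acids, and of 3 tested genes GH3.17 was 1.51-fold lower, a call lost without msg2 BR array 2 or axr2 BR array 2. The lateral root regulator gene LBD16 read 6.39 and 6.49 against 6.58 and 6.86 and was not called (−0.28 ± 0.24). None of 4 tested gibberellin genes and none of 3 ethylene genes was called.

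Lists of transporters held few calls, where 5.32% of all tested genes were called higher and 6.63% lower. Differences were positive for 7 and negative for 5 ion transporter genes, and 6 and 6 for sugar transporter genes. Of 12 tested genes for nitrate, phosphate, sulfate and metal ion transporters 2 were higher and none lower. These were AT1G68570 (2.23-fold, lost without axr2 BR array 1) and the nitrate transporter gene NRT2.5 (at least 1.74-fold, lost without msg2 BR array 2 or either axr2 BR array). Of 12 tested SWEET and other sugar transporter genes 3 were lower and none higher, with a median of −0.01. SWEET11, a plasma membrane sucrose carrier gene, was 1.70-fold lower (11.92 and 11.89 against 12.61 and 12.74). The genes of the vacuolar carriers SWEET16 and SWEET17 were 2.39-fold and 2.15-fold lower, the latter not without msg2 BR array 1 or axr2 BR array 2. COR47, a dehydrin of cold and drought responses, read 10.42 and 10.41 against 11.83 and 11.78, 2.62-fold lower (−1.39 ± 0.15, adjusted p = 6.5e-06). It was 1 of 2 lower genes among 10 tested late-embryogenesis-abundant genes (median −0.46). The second, LEA18, lost its call in 6 of 12 leave-outs. Further large falls among genes with clear signal in both mutants were those of ALN (allantoinase, 3.34-fold), STR18 (a sulfurtransferase, 3.26-fold), BZIP61 (3.04-fold), EULS3 (a lectin, 2.82-fold) and ATL8 (a RING-finger protein, 2.66-fold). Of 34 tested UDP-glycosyltransferase genes 5 were lower and 1, UGT88A1, was higher, a 1.80-fold difference lost without axr2 BR array 1. UGT76C1 was at least 2.40-fold lower, lost without msg2 BR array 1.

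Many genes of the chloroplast were higher in treated axr2 than in treated msg2. In darkness plastids stay etioplasts without green thylakoids, and the plastid genome encodes a core of photosystem, ribosomal and gene expression proteins while the nucleus encodes the rest. Of 69 plastid-encoded genes with a probe set of their own 58 were tested, and 24 of these were higher in treated axr2 and none lower. The median difference was 0.97 against 0.06 over all genes, of which 5.32% were called higher. The sign was positive for 57 of the 58, and for 50 of them both axr2 arrays lay above both msg2 arrays, as they did for 31.2% of all tested genes. In mock, where 8.29% of all genes were called higher, 22 were higher and none lower, with a median of 0.73. The count fell to between 12 and 17 when 1 of the 4 treated arrays was left out (12 without axr2 BR array 1), and 8 genes kept their calls in every leave-out. It was 20 with arrays centred on their medians and 13 without the intensity trend in the fit. The median signal of these genes was 9.69 and 9.27 in treated axr2, and 8.48 and 8.16 in treated msg2. In mock it was 9.52 and 8.55 in axr2, and 7.55 and 8.05 in msg2. Wild type had 8.10 and 7.75 with BR and 8.56 and 8.00 in mock, the first of these level with mock axr2 array 2. Plastid genes are not independent of each other, so counts of them add no replicates to the 2 arrays per group. Their list was also chosen after the values had been seen.

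Among plastid genes of protein synthesis, rpl22, for a ribosomal protein, read 8.28 and 8.09 in treated axr2 and 6.31 and 6.34 in treated msg2, 3.62-fold higher (1.86 ± 0.30, adjusted p = 0.00039). Treated wild type lay between, at 7.18 and 6.65. The ribosomal protein gene rps3 read 9.60 and 9.43 against 8.09 and 7.59, 3.20-fold higher, and rps19 was 2.04-fold higher. In all, 6 of 13 tested plastid genes for ribosomal proteins were higher. The maturase gene matK, whose product aids splicing of plastid introns, read 12.06 and 12.33 against 11.21 and 10.60, 2.45-fold higher (1.29 ± 0.24, adjusted p = 0.0012). Of the photosystem II genes 4 of 14 were higher. psbZ (11.61 and 11.72 against 10.91 and 10.22, 2.14-fold) kept its call throughout, and psbH (10.42 and 9.30 against 8.25 and 8.22, 3.09-fold) lost it without axr2 BR array 1. ccsA, needed for cytochrome c assembly, was 2.19-fold higher, cemA, for an envelope membrane protein, 2.34-fold and ndhA, of the NADH dehydrogenase-like complex, was higher by 0.94 ± 0.18. Of 7 tested NDH genes 3 were higher, and of 5 photosystem I genes 1 was higher. Over all tested genes 5.32% were called higher.

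Nuclear genes for chloroplast proteins lay on the same side with BR, where 5.32% of all tested genes were called higher. In mock 8.29% of all tested genes were called higher. The 3 lists below, in their order, had 2 of 12, 1 of 8 and 8 of 27 genes higher in mock and none lower. Of 12 tested genes for light-harvesting, photosystem and carbon-fixation proteins 6 were higher and none lower (median 0.53). RCA, which keeps Rubisco active, read 12.93 and 13.15 in treated axr2 and 11.91 and 12.25 in treated msg2, 1.94-fold higher (0.96 ± 0.14, adjusted p = 0.00016). LHCB4.2, an antenna protein gene of photosystem II, read 12.52 and 12.91 against 11.79 and 11.69, 1.96-fold higher. In mock, wild type read 12.70 and 12.63 for this gene, above axr2 at 11.92 and 12.45. PSAE-1, a photosystem I subunit gene, was 1.99-fold and PSBY, of photosystem II, 1.75-fold higher. Of 8 tested genes for chlorophyll and tetrapyrrole synthesis 6 were higher (median 0.59), but 1 was called when msg2 BR array 2 or axr2 BR array 2 was left out, 2 without msg2 BR array 1 and 3 without axr2 BR array 1. With arrays centred on their medians 3 were called, and 2 without the intensity trend. HEME2, a uroporphyrinogen decarboxylase gene, was 1.80-fold higher (10.40 and 10.63 against 9.68 and 9.65) and kept its call throughout. A further list was chosen after the values had been seen, so its share gives no independent support. It held 27 other nuclear genes of photosystem assembly, the NDH complex, plastid thioredoxins and plastid division. Of these 14 were higher and none lower (median 0.70). That count was 6 without msg2 BR array 2, 7 without axr2 BR array 1, and 9 and 10 without the remaining 2 treated arrays in turn. PIFI, of the NDH pathway, was 2.39-fold higher (8.63 and 8.84 against 7.87 and 7.09), NTRC, a plastid thioredoxin reductase gene, 2.13-fold and TROL, a thylakoid membrane protein gene, 2.11-fold.

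**Figure D3:**
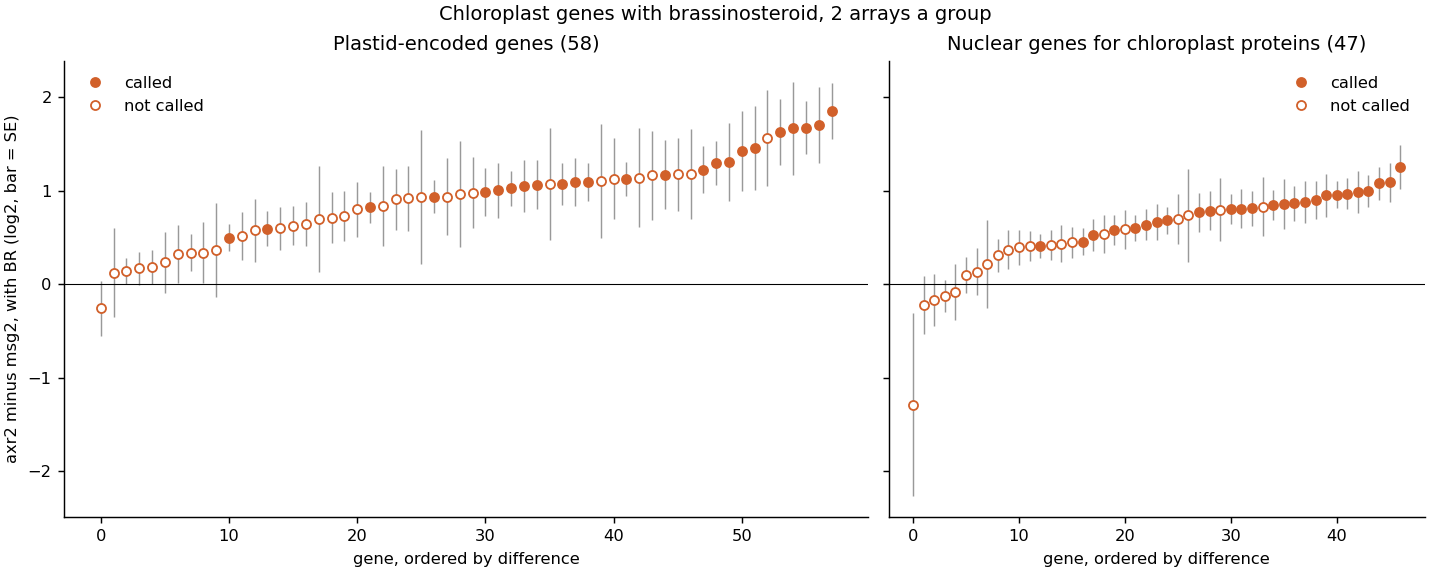
The axr2 minus msg2 difference with brassinosteroid (log2, bars ± SE, 2 arrays per group) for 58 plastid-encoded genes, left, and 47 nuclear genes for chloroplast proteins, right, each ordered by its difference. Filled points were called and open points were not, and 57 of the 58 plastid-encoded genes lie above 0.

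Values that bear on RNA quality and on seedling parts were set beside the chloroplast genes. On the array's own control probe sets, the 3′ minus 5′ signal of GAPDH was 0.08 and 0.28 in treated axr2 and 0.39 and −0.27 in treated msg2, ranges that overlap. For actin it was 3.91 and 4.57 in treated axr2 and 4.98 and 4.97 in treated msg2, so both axr2 arrays were lower. Its part in the chloroplast result was not tested. Of 46 markers of seedling parts and cell types 13 had a probe set of their own and 12 were tested. Of these EXPA18, LHCB4.2 and RCA were called, all higher, and all 3 are described above. From the same sets, the antenna genes LHCB4.1 (0.41) and LHCB4.3 (0.54) and the root-hair gene EXPA7 (0.52) were not called. Nor were the lateral root genes LBD16 (−0.28), LBD29 (0.16) and PUCHI (1.60). PYK10 (0.16), abundant in roots, and the histone genes HTB1 (0.34) and HTB2 (0.32), high in dividing cells, were not called either. The defining markers of endodermis, seed, xylem and phloem are not analysed here.

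Lists of specialised and surface metabolism were short and held calls in both directions. Over all tested genes 5.32% were called higher and 6.63% lower, so single calls are not read as a result about a list. Of 4 tested glucosinolate genes 1 was higher and 1, AOP1, was lower (1.88-fold, lost in 8 of 12 leave-outs). BCAT4, the aminotransferase that starts chain elongation of methionine for aliphatic glucosinolates, read 11.20 and 11.22 in treated axr2, 8.49 and 8.76 in treated msg2 and 8.39 and 8.50 in treated wild type. It was 6-fold higher in axr2 (2.58 ± 0.45, adjusted p = 0.00074). Of 3 tested genes of waxes and related lipids 2 were higher and 1 was lower. FACT, a fatty alcohol caffeoyl transferase gene of waxes, was 2.41-fold higher (9.38 and 9.55 against 8.19 and 8.21). WSD1, a wax synthase gene, was lower, at 0.00 and 0.00 against 6.59 and 5.14. These signals are dim except the first of msg2, and its call was lost with dim signals raised. Of 14 tested pathogen-response genes 1, the defensin gene PDF2.5, was higher (2.31-fold) and none lower. Of 10 tested glutathione transferase genes 1, GSTU20, was higher, 1.84-fold, and none lower. GSTU20 read 11.55 and 11.82 in axr2, 10.80 and 10.82 in msg2 and 9.75 and 9.45 in wild type. Of 6 tested genes matched by name as class III peroxidases 1 was higher and 1, AT5G66390, was lower (1.87-fold). Matching by name may miss members, and AT1G49570, given below, was not on this list. PRX52, the higher one, was at least 2.86-fold higher, a call lost without msg2 BR array 2 or axr2 BR array 1. Treated wild type (7.72 and 7.42) read close to axr2 there, and msg2 (6.09 and 5.37) stood below both. QQS, a gene specific to Arabidopsis thaliana known to affect starch content, was chosen after its values were seen. It read 11.41 and 11.62 in treated axr2, 9.53 and 9.58 in treated wild type and 5.90 and 4.81 in treated msg2, at least 43.7-fold higher in axr2 than in msg2.

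Of 14 genes higher by more than 5 on the log2 scale 12 were pseudogenes as annotated by RefSeq, and the other two were QQS and AT1G58025. AT1G58025 read 12.12 and 12.24 in treated axr2 and 4.02 and 1.63 in treated msg2, at least 69.1-fold higher (9.35 ± 0.86, adjusted p = 7.4e-07). Treated wild type read 2.16 and 2.24, and mock axr2 was at 12.08 and 11.49. Of 998 pseudogenes with a probe set of their own 62 passed the filter on dim signals, 18 were higher and 1, AT1G35612, was lower. That lower call was lost without msg2 BR array 1 or 2 or axr2 BR array 1. Because 33 of the 62 would not have passed the filter without axr2 arrays, and 16 of the 18 were among those 33, their share says nothing of pseudogenes in general. Of the 18, 15 were dim on every wild-type and msg2 array, 15 were also higher in axr2 in mock, and 11 lay on probe sets that may bind related transcripts, so which copy gave the signal is uncertain. Their log2 signals had a median of 9.40 (6.40 to 10.99) in treated axr2, 3.76 (0.00 to 8.39) in treated msg2 and 3.07 (0.00 to 7.86) in treated wild type. AT2G13870 read 9.92 and 10.01 in treated axr2 against 2.09 and 1.10, at least 14.9-fold higher. AT3G30396 read 10.42 and 10.27 against 2.74 and 1.90, at least 19.4-fold higher, and AT2G13160 was at least 29.0-fold higher. Without axr2 BR array 1 or 2, 10 pseudogenes were higher.

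**Figure D4:**
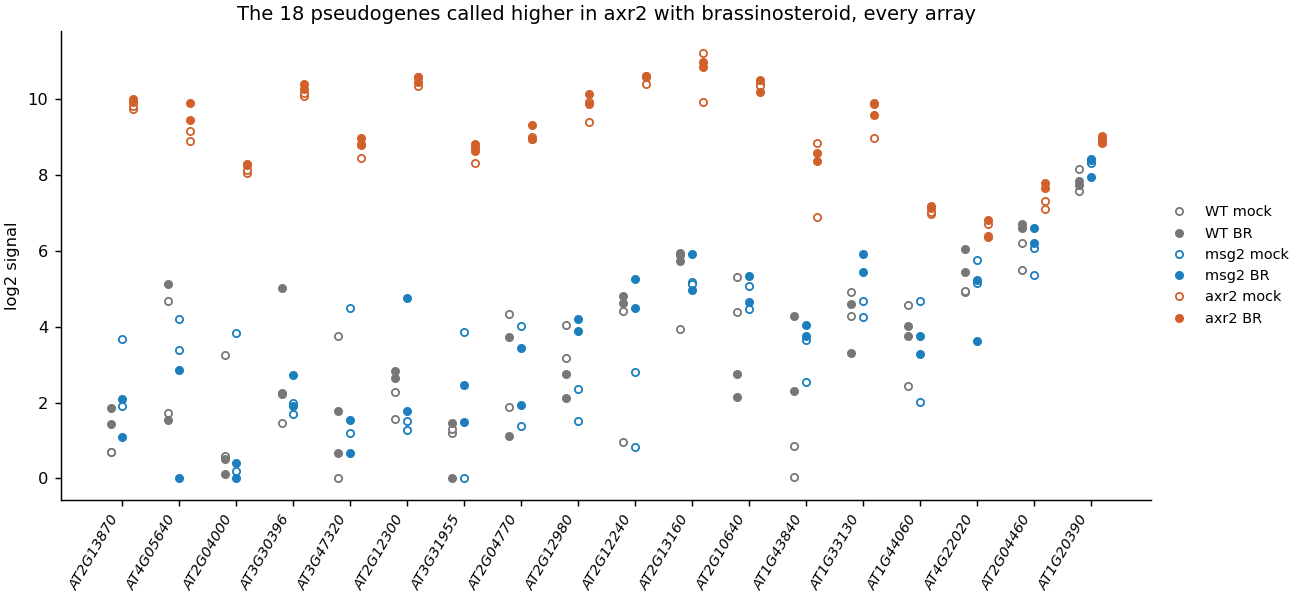
Log2 signal on every array of the 18 pseudogenes called higher in treated axr2, ordered by their difference from msg2, with open points for mock and filled points for BR. For most of them the axr2 arrays of both treatments lie above all wild-type and msg2 arrays, with smaller gaps for the last 3.

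Whether the difference between the mutants changed with the hormone was tested as an interaction, the difference with BR minus that in mock. It was called for 82 probe sets (0.546%), 32 (0.213%) positive and 50 (0.333%) negative, and for 34 genes (0.42%), 12 (0.148%) positive and 22 (0.272%) negative. At an unadjusted p under 0.05 there were 1415 probe sets. The count was small and moved with the settings: it was 49 with no filter on dim signals, 17 without the intensity trend and 42 without msg2 mock array 1. Of the genes given below, AT4G33720, AT5G04120, XTH19 and GH3.3 lost the interaction call without the intensity trend.

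Negative interactions included genes that were high with BR in msg2 and wild type and low in axr2. AT4G33720 read 11.08 and 10.80 in treated msg2, 10.14 and 9.06 in treated wild type and 2.88 and 6.20 in treated axr2. In mock the mutants were close, at 7.82 and 8.12 in msg2 and 7.20 and 7.78 in axr2. The treated difference was −6.40 ± 0.62, at least 26.5-fold, and the interaction was −5.92 ± 0.88 (limma adjusted p = 0.0023). The first treated axr2 signal was dim, and with dim signals raised the difference was −4.73 and the interaction −4.25 (adjusted p = 0.00044). AT5G04120 read 11.30 and 11.56 in treated msg2 and 5.03 and 0.62 in treated axr2, at least 38.0-fold lower. Its treated difference of −8.61 was larger than its interaction, because axr2 also read lower than msg2 in mock. Its interaction was −5.82 ± 1.08 (adjusted p = 0.016), or −2.46 with dim values raised, and lost its call without any of the 4 msg2 arrays in turn.

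XTH20 turned direction. In mock it read 8.24 and 8.85 in axr2 and 7.35 and 7.35 in msg2, 2.28-fold higher in axr2 (1.19 ± 0.23, adjusted p = 0.0016). With BR it read 7.89 and 7.60 in axr2 and 9.05 and 9.02 in msg2, close to treated wild type at 9.14 and 8.94. The interaction was −2.48 ± 0.32 (adjusted p = 0.00067). AT5G40590 had the same form, with 8.14 and 8.25 in mock axr2 against 7.33 and 7.44 in mock msg2, and 7.05 and 7.39 against 9.24 and 9.17 with BR. Its interaction was −2.80 ± 0.28 (adjusted p = 6.9e-05). AT1G49570 was 3.48-fold lower in treated axr2 (9.78 and 9.33 against 11.22 and 11.49), with an interaction of −2.31 ± 0.27. XTH19 was lower in axr2 in both conditions and further apart with BR (interaction −1.19 ± 0.21, adjusted p = 0.0087, lost without msg2 mock array 1).

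Among positive interactions the mutants were far apart in mock and closer with BR. SIS, a salt-induced serine-rich protein gene, read 10.72 and 10.84 in mock msg2 and 8.18 and 8.45 in mock axr2. With BR it read 9.14 and 9.19 in msg2 and 8.87 and 9.30 in axr2, groups that overlap (−0.08 ± 0.18, adjusted p = 0.83), while treated wild type read 10.82 and 10.67. The interaction was 2.39 ± 0.26 (adjusted p = 0.00015). OCT1, an organic cation transporter gene, read 9.93 and 9.86 in mock msg2 and 7.93 and 8.19 with BR, against 6.55 and 6.67 and then 6.86 and 6.91 in axr2. It was 2.26-fold lower in treated axr2, with an interaction of 2.11 ± 0.28 (adjusted p = 0.00071). GH3.3, of the auxin-conjugating family, read 8.79 and 9.51 in treated axr2 and 8.94 and 9.39 in treated msg2, which overlap (−0.01 ± 0.26). In mock it was lower in axr2 by 1.65 ± 0.26 (7.43 and 8.21 against 9.54 and 9.40). Its interaction of 1.64 ± 0.36 (adjusted p = 0.048) was lost in 10 of 12 leave-outs.

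**Figure D5:**
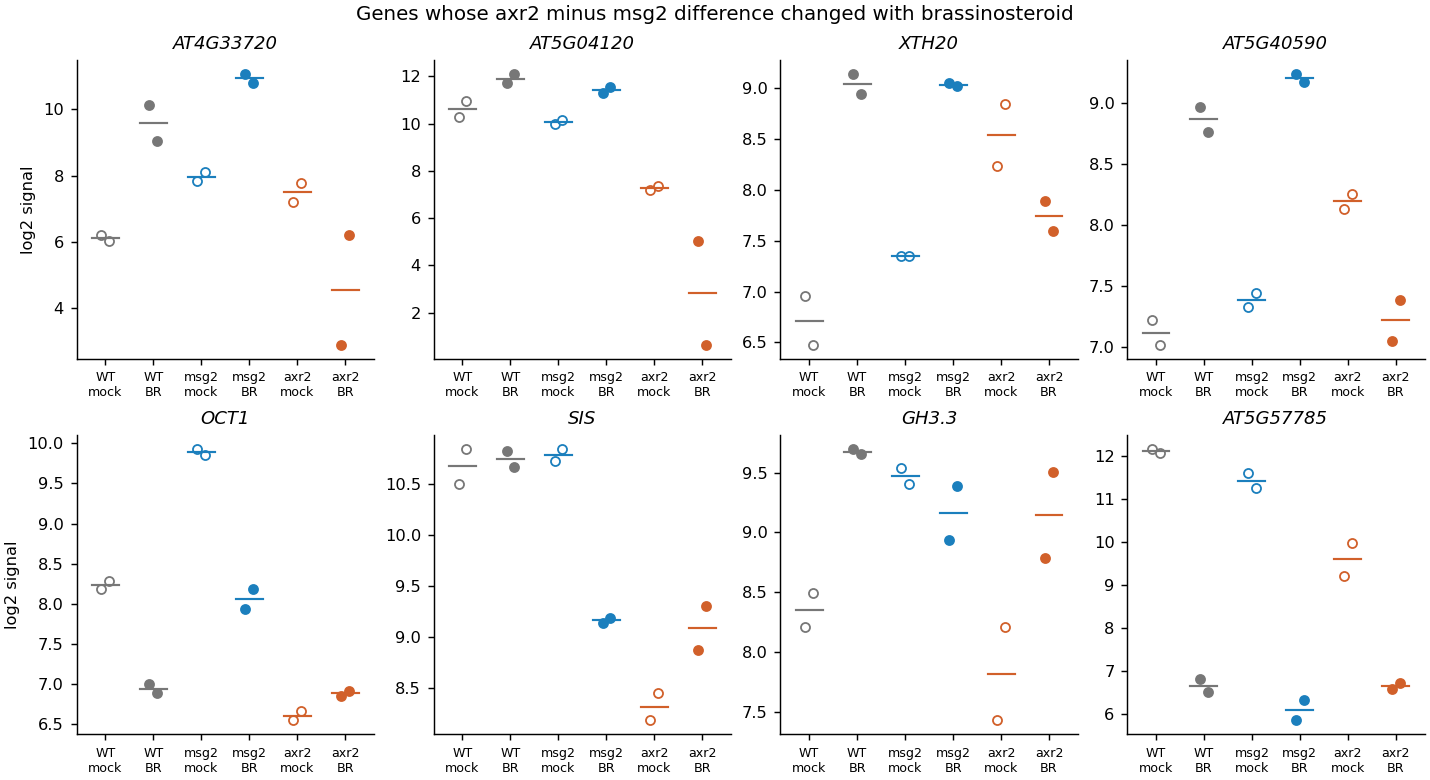
Log2 signal on all 12 arrays of 8 genes whose difference between axr2 and msg2 changed with brassinosteroid, 1 point per array and a bar at each mean, open for mock and filled for BR (vertical axes do not start at 0 and differ between panels). In the upper row treated msg2 lies above treated axr2, and in the lower row the mutants lie closer with BR than in mock.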

How the data were processed

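Transcripts were measured on 12 Affymetrix ATH1 arrays, 2 per group of genotype and treatment, with groups taken from the sample titles. Signals were computed by the authors with MAS 5.0, per the submitters' processing notes and design text, and deposited as log2 values. The 2% trimmed mean of the linear signals was 500.05 to 500.06 on every array, so arrays were not normalised again, although MAS scaling leaves differences in the median (6.91 to 7.18). Between 139 and 436 probe sets of an array hold a 0, and these give very large log2 differences for dim genes. Detection calls were not used, and the number of arrays limits the precision.

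The 64 control probe sets were left out. Of 22746 others, 13513 were paired with 1 gene in the probe table used, 503 with several and 8730 with none. Symbols were updated through RefSeq by gene ID for 13436, by locus for 48, and kept for 29. Probe sets with at least 2 of 12 arrays above their own 40th percentile were tested. One mean per group was fitted to all 12 arrays with limma 3.58.1 (R 4.3.3), with variances following intensity (6 residual and 12 prior degrees of freedom). Where replicates were not from separate cultures, p-values measure only the spread between these arrays. On simulated data for axr2 BR minus msg2 BR over 15025 probe sets, 66 of 100 changes of 1 and 95 of 100 changes of 2 (log2) were recovered, with 7 false calls. The simulation changed 200 probe sets, whereas 1924 were called in the measured data. Its counts hold for the simulated noise only. They do not measure recovery or false calls on the real arrays, whose spread may differ between probe sets of equal intensity.

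Genes were named by rule: the 12 largest rises and 12 largest falls among called genes with a symbol, signal in the lower group and no overlap, the 6 largest each way whatever the lower group, up to 4 called genes of each list, the 6 largest interactions each way, and 21 fixed genes, of which 4 were tested. The members and lists were chosen with earlier results of these data known, and the lists of plastid-encoded genes, pseudogenes, other chloroplast genes, proteases and endoglucanases after the values had been seen. Lists are described by counts and medians only. A list gene with several probe sets was read by the brightest. Alternatives were other scalings, filters, offsets and fits, a replicate block, a 2-fold minimum and leaving out each array. Whether equal replicate numbers pair arrays was checked, and they did not.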

Additional observations from a re-analysis of the deposited data

Results flagged for a closer look

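The difference between axr2 and msg2 with BR differed from that in mock for 15 of the named genes, by limma's interaction test (log2, difference with BR minus difference in mock). It was negative for AT4G33720 (−5.92), AT5G04120 (−5.82), AT5G52670 (−3.83), AT5G40590 (−2.80), XTH20 (−2.48), AT1G49570 (−2.31), PDF2.5 (−1.39) and XTH19 (−1.19). It was positive for AT5G57785 (2.39), SIS (2.39), AT2G16005 (2.17), OCT1 (2.11), AT5G02160 (2.01), AT2G05540 (1.81) and GH3.3 (1.64).

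AT4G33720, AT5G40590, XTH20, AT1G49570, OCT1, SIS and AT5G57785 kept the interaction call in all 12 leave-outs of a single array. With dim values raised the interaction was −4.25 for AT4G33720 and −2.46 for AT5G04120. AT5G52670 was dim on both mock msg2 arrays (3.04 and 2.22), and its interaction was −0.75 (adjusted p = 0.52) with dim values raised. AT2G16005 lost its call in 9 of 12 leave-outs, AT5G02160 in 6, AT2G05540 in 5, AT5G04120 and PDF2.5 in 4 each, GH3.3 in 10 and XTH19 in 1. AT5G57785 read 9.21 and 9.98 in mock axr2 and 11.58 and 11.25 in mock msg2, and 6.57 and 6.72 against 5.84 and 6.31 with BR, where the difference (0.57 ± 0.24, adjusted p = 0.13) was not called. PDF2.5 was higher in axr2 in both conditions, by 2.60 ± 0.19 in mock and 1.21 ± 0.19 with BR.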

How the results depend on the processing

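Of 2669 recomputed values for 122 named results, 2402 kept their direction and their side of the threshold, 263 kept the direction but lost the call, and 4 changed sign, all of them for differences that were not called. These were GH3.3 under quantile normalisation (0.0028) and in 2 leave-outs, whose values ran from −0.38 without axr2 BR replicate 2 to 0.35 without axr2 BR replicate 1 (0.21 without msg2 BR replicate 2), and SIS, which ran from −0.30 without axr2 BR replicate 2 to 0.14 without axr2 BR replicate 1. Of the 105 named genes that were called between the treated mutants 64 kept their call in all 12 leave-outs.

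Leaving out 1 array gave 1055 to 2158 calls for the treated mutants (383 to 967 higher, 606 to 1193 lower), 1050 to 2604 in mock (457 to 1310 higher, 593 to 1312 lower), and 42 to 93 interactions (14 to 52 positive, 27 to 41 negative). The largest losses in mock were without msg2 mock replicate 1 (1050), msg2 mock replicate 2 (1513) and axr2 mock replicate 2 (1582). For the interaction they were without msg2 mock replicate 1 (42) or 2 (51) and msg2 BR replicate 1 (49) or 2 (53). A 2-fold minimum left 758 calls (304 and 454) for the treated mutants and 861 (395 and 466) in mock. Without the intensity trend 559 probe sets were higher in treated axr2, and 17 interactions were called (6 positive, 11 negative). With no filter there were 49 interactions (20 and 29). Centring arrays on their medians left 672 higher in mock. For the treated mutants the same centring moved the median difference over all genes from 0.06 to −0.03. The cause was not tested.

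Equal replicate numbers did not pair the arrays: deviations of same-numbered arrays from their group means correlated at −0.08 to 0.07 over 15 pairs of groups. With a replicate block there were 1818 calls for the treated mutants, 2446 in mock and 77 interactions. With 2 arrays per group, and with signals near the floor in one mutant for many of the largest differences, the size of those differences is known only as a lower bound.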
